A study of Mus musculus with 12 samples.

Results

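The B7 and CD28 family genes described here are the B7 ligands Cd80, Cd86, Icosl, Cd274, Pdcd1lg2 and Cd276 and the receptors Cd28 and Btla. They were chosen by name: every probe that the arrays assign to 1 of these 8 genes was used, which gave 12 probes of 55681 and 8 gene names of 34650. 7 of the 8 genes were measured well enough to be tested, and Cd276 was not well above background on any of the 12 arrays. RNA was measured on 1-colour Agilent arrays and came from splenic B cells of BALB/c mice, females aged 9 weeks, which had been purified by negative selection. STAT6 is the transcription factor that the IL-4 receptor activates, and the design asks how the response to IL-4 differs in cells without it. The 4 groups of 3 arrays were STAT6 knockout (KO) cells with IL-4 at 25 ng/ml, KO control cells without IL-4, wild-type (WT) cells with IL-4 at 25 ng/ml, and WT control cells without IL-4. All groups shared 4 days of culture with anti-CD40 antibody at 10 µg/ml plus lipopolysaccharide at 2 µg/ml, and no group held resting B cells. The knockout allele, and whether replicates came from separate mice, are not given in the sources used here, so p-values measure the spread between these samples, which may be technical. In RNA of a whole culture, fewer cells of a type and less RNA per cell cannot be told apart.

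B7 proteins on antigen-presenting cells, activated B cells among them, bind CD28 family receptors on T cells. CD80 and CD86 give the activating signal through CD28 and the inhibitory signal through CTLA4, and ICOSL binds ICOS, which sustains T follicular helper cells. PD-L1 (Cd274) and PD-L2 (Pdcd1lg2) bind the inhibitory receptor PD-1, B7-H3 (Cd276) has no settled receptor, and BTLA is an inhibitory receptor of B and T cells that binds HVEM.

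The values are levels on a log2 scale relative to the 75th percentile of each array, so a level of 0 is the signal of that percentile and a difference of 1 is a doubling. They compare groups for 1 gene and do not rank genes against each other. Group means were fitted with limma over the 16493 genes tested, and a gene was called higher or lower at an adjusted p under 0.05 (Benjamini-Hochberg over these genes). The percentile lay between 296.3 and 355.6 intensity units, none of the spots was saturated, and those well above background made up 40.68% to 43.96%. The 3 arrays per group limit the precision. The arrays lie on 2 slides: slide 1 holds all WT arrays and KO controls 1 and 2, and slide 2 holds KO control 3 and the 3 KO IL-4 arrays. The comparison of KO with WT in IL-4 is therefore also one between slides, and values with slide as a block rest on the KO controls. Stat6 was at 1.30, 1.38 and 1.59 in KO IL-4 arrays, at 1.13, 1.29 and 1.30 in KO controls, at 3.42, 3.38 and 3.29 in WT IL-4 arrays and at 3.11, 3.23 and 3.20 in WT controls. All KO arrays lay below all WT arrays, and where the probe lies relative to the deleted part of the gene is not given.

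The promoters of Cd80, Icosl and Pdcd1lg2 are given because these 3 ligand genes fell with IL-4 in WT cells, and because IL-4 acts through STAT6 and CD40 and lipopolysaccharide through NF-κB. Each runs from 250 bases before to 50 bases after the start of the gene, in RefSeq sequence of build GRCm38.p6. Capitals mark matches, on either strand, to 4 motifs: TTC and GAA with 4 bases between them (STAT6) or 3 bases between them (other STAT factors), GGG and CC with 5 bases between (NF-κB), and GAAA and GAAA with 2 bases between (interferon response). No match overlaps another in these windows.
Cd80, chr16:38458683-38458982, plus strand: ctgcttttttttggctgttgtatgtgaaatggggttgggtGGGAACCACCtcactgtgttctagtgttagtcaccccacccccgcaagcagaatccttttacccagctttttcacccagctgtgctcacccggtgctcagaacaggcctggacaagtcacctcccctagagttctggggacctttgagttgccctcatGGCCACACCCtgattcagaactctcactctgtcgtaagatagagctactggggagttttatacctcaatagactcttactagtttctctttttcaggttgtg
Icosl, chr10:78069118-78069417, plus strand: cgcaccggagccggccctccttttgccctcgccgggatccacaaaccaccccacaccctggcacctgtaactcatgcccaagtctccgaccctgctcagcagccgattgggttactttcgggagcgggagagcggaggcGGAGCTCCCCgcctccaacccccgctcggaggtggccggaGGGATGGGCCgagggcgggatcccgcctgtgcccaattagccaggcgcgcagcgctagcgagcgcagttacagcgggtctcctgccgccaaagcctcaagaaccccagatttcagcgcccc
Pdcd1lg2, chr19:29410669-29410968, plus strand: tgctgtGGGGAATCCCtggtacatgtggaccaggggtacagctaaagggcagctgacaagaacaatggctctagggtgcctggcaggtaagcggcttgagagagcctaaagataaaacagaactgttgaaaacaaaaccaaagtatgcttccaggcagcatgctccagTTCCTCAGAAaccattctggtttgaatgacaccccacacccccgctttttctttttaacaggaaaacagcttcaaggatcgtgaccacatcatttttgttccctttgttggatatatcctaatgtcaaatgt
The Cd80 promoter holds an NF-κB match at -210 and another at -52 from the start, the Icosl promoter holds them at -111 and -71, and the Pdcd1lg2 promoter holds an NF-κB match at -244 and a STAT6 match at -82. Of the 32851 mouse promoters of the table, 50.8% hold the NF-κB letters, 7.0% the STAT6 letters, 8.3% the STAT letters and 3.4% the interferon response letters. The Icosl window has 68.0% G and C and 26 CpG sites, the Cd80 window 49.7% and 3 sites, and the Pdcd1lg2 window 46.0% and 3 sites, beside a median of 52.7% G and C over all promoters. Promoters of 6 of the 8 genes matched the table, and those of Cd86 and Cd28 are named only. Of the matched promoters not printed, those of Cd274 and Btla hold no match to any of the 4 motifs. That of Cd276, a gene at background, holds 9 NF-κB matches, some of them overlapping. Btla also fell with IL-4 in WT cells, so an NF-κB match is not shared by all members that fell. A match to these letters is a description of the sequence and shows no binding.

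Cd80 encodes the B7-1 ligand of CD28 and CTLA4. It had levels of 4.71, 4.77 and 4.95 in KO cells with IL-4, against 3.92, 3.75 and 3.77 in KO controls, and of 2.19, 2.20 and 2.17 in WT cells with IL-4, against 3.96, 3.95 and 3.94 in WT controls. All KO IL-4 arrays lay above the KO controls and all WT IL-4 arrays lay below the WT controls, with no overlap. With IL-4, Cd80 rose 2.00-fold in KO cells (log2 difference 1.00 ± 0.07 SE, limma, adjusted p = 3.49e-06) and fell 3.40-fold in WT cells (-1.76 ± 0.07 SE, adjusted p = 6.88e-09). The response in KO cells minus that in WT cells was 2.76 ± 0.09 (SE, adjusted p = 1.06e-08). In the presence of IL-4, Cd80 was 6.17-fold higher in KO than in WT cells (2.63 ± 0.07 SE, adjusted p = 4.94e-10). Without IL-4 the difference between KO and WT was -0.14 ± 0.07 (SE, adjusted p = 0.178), and the control arrays did not overlap. The order of the 4 levels was thus KO with IL-4, then WT control and KO control, which the test did not separate, then WT with IL-4.

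Cd80 was read by 2 probes on chromosome 16 (build mm9), and the one that stands for the gene lies at chr16:38486772-38486831. The other lies at chr16:38479343-38479402, on the plus strand, and is printed because it is a separate reading of the gene, from base 872 of the transcript NM_009855.
Cd80 second probe: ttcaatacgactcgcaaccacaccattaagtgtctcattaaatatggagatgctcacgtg
It gave 3.06, 3.04 and 3.34 in KO cells with IL-4 and 2.07, 2.16 and 2.24 in KO controls, and 0.75, 0.64 and 0.59 in WT cells with IL-4 and 2.19, 2.27 and 2.25 in WT controls. These values have the same order by group as those of the first probe. The differences were 0.99 with IL-4 in KO cells, -1.58 with IL-4 in WT cells and 2.56 between the 2 responses.

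**Figure D1:**
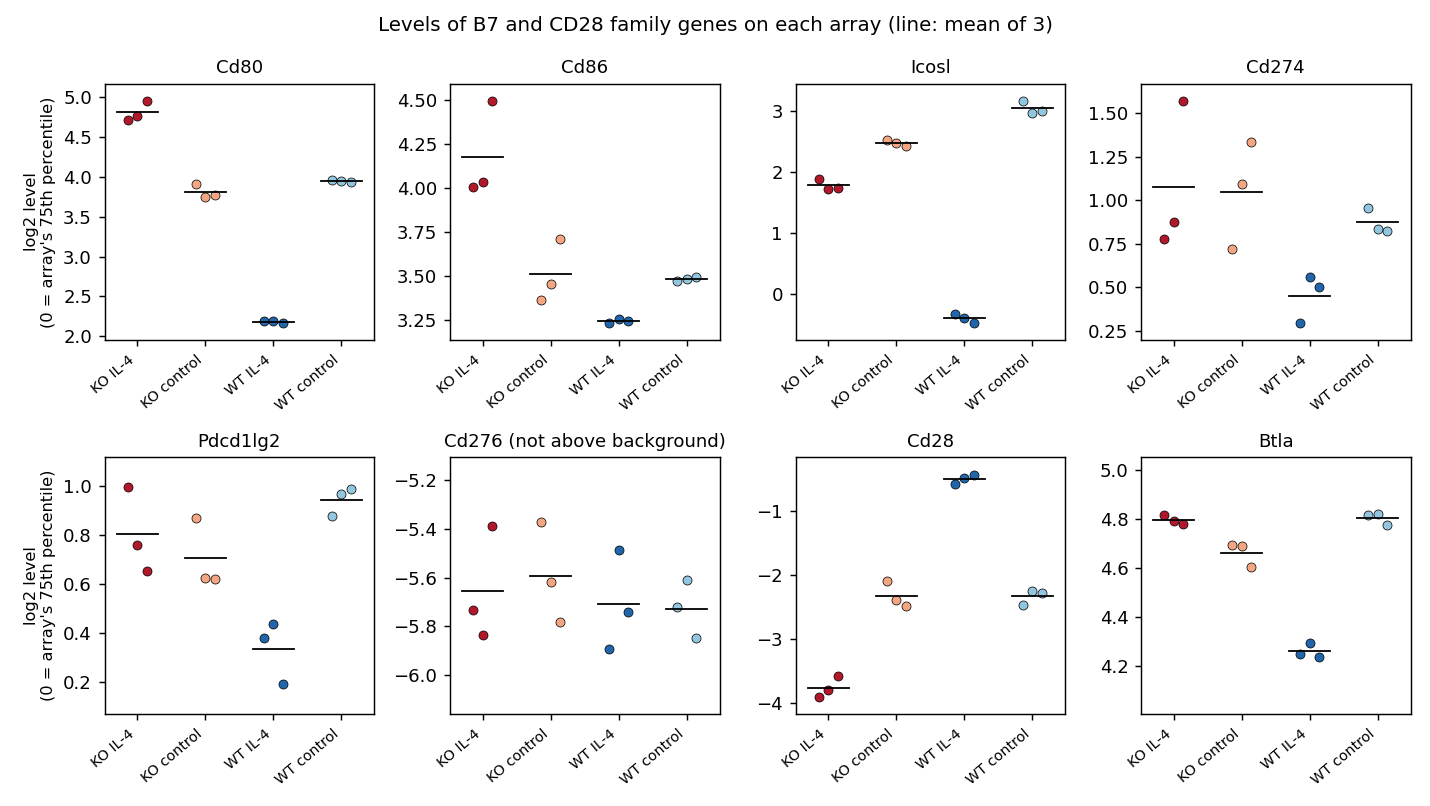
Levels of the 8 genes on each array (points; log2 relative to the array's 75th percentile) with the group mean (bar), for KO IL-4, KO control, WT IL-4 and WT control from left to right, 3 arrays each. Cd80 and Icosl are lowest in WT cells with IL-4 (means of 2.19 and -0.39), as are the means of Cd86, Cd274, Pdcd1lg2 and Btla. Cd28 is highest there (-0.49) and lowest in KO cells with IL-4 (-3.76), and Cd276 lies at background in all 4 groups.

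Cd86 encodes B7-2, the other ligand of CD28 and CTLA4. Its levels were 4.01, 4.03 and 4.50 in KO cells with IL-4, against 3.36, 3.46 and 3.71 in KO controls. They were 3.23, 3.26 and 3.25 in WT cells with IL-4, against 3.47, 3.48 and 3.50 in WT controls. KO cells with IL-4 lay above every other array, the third array of both KO groups was the highest of its group, and the WT arrays with IL-4 lay just below the WT controls. Cd86 rose 1.59-fold with IL-4 in KO cells (0.67 ± 0.12 SE, limma, adjusted p = 0.00188), and the difference in WT cells was -0.24 ± 0.12 (SE, 95% interval -0.52 to 0.04, adjusted p = 0.127). The responses differed by 0.91 ± 0.18 (SE, adjusted p = 0.00222), and with IL-4 Cd86 was 1.91-fold higher in KO than in WT cells (0.93 ± 0.12 SE, adjusted p = 0.000125). With slide as a block, the KO response was 0.47 (adjusted p = 0.0498) and the difference between genotypes with IL-4 was 0.63 (adjusted p = 0.0414). Within slide 2 alone, where only 1 KO control lies, the KO response was 0.47 and was not called (adjusted p = 0.236). Without IL-4, KO minus WT was 0.03 (adjusted p = 0.903). Fitted on the compared WT arrays alone, the WT difference of -0.24 was called (adjusted p = 0.00155).

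The Cd86 probe that stands for the gene lies at chr16:36603961-36604020 (mm9), on the minus strand, in transcript NM_019388. A second Cd86 probe, made to the predicted transcript XR_384518 at chr16:36569043-36569102, was dim, with group means between -3.22 and -2.34 and a signal well above background on 3, 2, 2 and 2 arrays of the KO IL-4, KO control, WT IL-4 and WT control groups. No comparison of it was called. Cd80 and Cd86 lie 1.88 Mb apart on chromosome 16.

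Icosl encodes the ligand of ICOS. It had levels of 1.90, 1.72 and 1.74 in KO cells with IL-4, against 2.53, 2.48 and 2.43 in KO controls, and of -0.32, -0.38 and -0.47 in WT cells with IL-4, against 3.17, 2.97 and 3.00 in WT controls. No array of any group overlapped another group. IL-4 went with a 10.8-fold lower level in WT cells (-3.44 ± 0.07 SE, limma, adjusted p = 1.18e-10) and a 1.62-fold lower level in KO cells (-0.69 ± 0.07 SE, adjusted p = 5.13e-05), so Icosl fell in both. The KO response minus the WT response was 2.75 ± 0.10 (SE, adjusted p = 1.86e-08), and with IL-4 the gene was 4.52-fold higher in KO than in WT cells (2.17 ± 0.07 SE, adjusted p = 3.45e-09). Without IL-4 it was 1.49-fold lower in KO than in WT cells (-0.57 ± 0.07 SE, adjusted p = 0.00172). It was the only one of the 7 genes called between the genotypes in the absence of IL-4, where 4.72% of all genes were higher and 6.97% lower. Scaling by each array's median gave 4 of the 7 lower. With slide as a block the Icosl difference without IL-4 was -0.55 (adjusted p = 0.00935) and its KO response was -0.64 (adjusted p = 0.00227). Within slide 2 alone the KO response was -0.64 and was not called (adjusted p = 0.0588).

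Icosl lies 49.6 Mb from Stat6 on chromosome 10. Its measured probe is at chr10:77542211-77542270 (mm9) in transcript NM_015790, and a second probe, at chr10:77545941-77546001, was made to the transcript AF394451. That probe was not well above background on any of the 12 arrays.

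**Figure D2:**
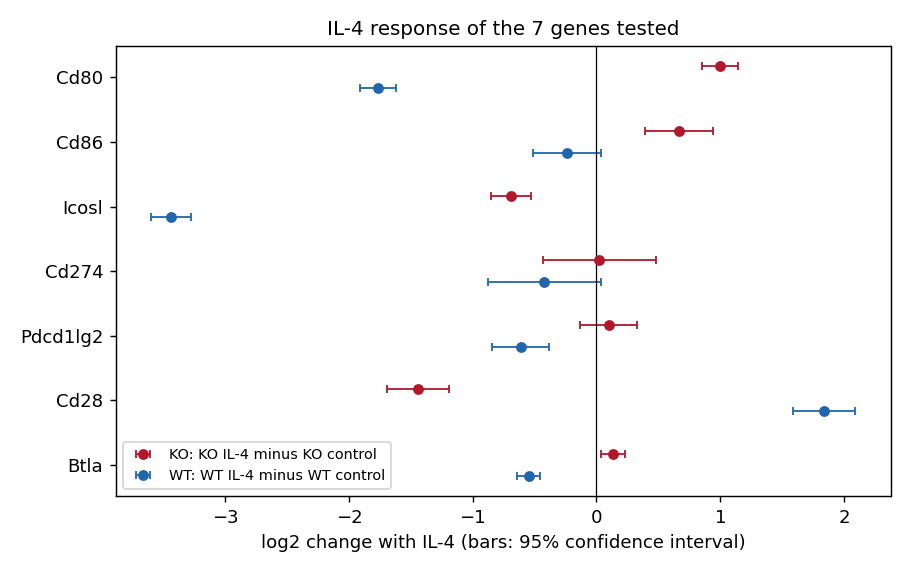
Difference with and without IL-4 (log2, points with 95% intervals) for the 7 tested genes, KO cells above WT cells for each gene. Cd80 lies at 1.00 in KO cells and at -1.76 in WT cells, Cd28 at -1.44 in KO cells and at 1.84 in WT cells, and Icosl is below 0 in both (-0.69 and -3.44).

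Cd274 encodes PD-L1 and had the largest standard error of the 7 tested genes. Its levels were 0.78, 0.87 and 1.57 in KO cells with IL-4, 0.72, 1.09 and 1.34 in KO controls, 0.29, 0.56 and 0.50 in WT cells with IL-4 and 0.95, 0.84 and 0.83 in WT controls. The KO groups overlapped each other and the WT controls, the third KO IL-4 array stood highest, and all WT IL-4 arrays lay below the others. The difference with IL-4 was 0.02 ± 0.21 in KO cells (SE, 95% interval -0.43 to 0.48, limma, adjusted p = 0.937) and -0.42 ± 0.21 in WT cells (SE, 95% interval -0.88 to 0.03, adjusted p = 0.103). Within slide 1, where all WT arrays lie, the WT difference of -0.42 was called (adjusted p = 0.0137). The responses were not called different (0.45 ± 0.29 SE, 95% interval -0.20 to 1.09, adjusted p = 0.234). With IL-4, Cd274 was higher in KO than in WT cells by 0.62 ± 0.21 (SE, adjusted p = 0.0272), which became 0.19 with slide as a block (adjusted p = 0.714). Without the third KO IL-4 array this difference was 0.37 (adjusted p = 0.0718). Its probe lies at chr19:29462363-29462422 (mm9).

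Pdcd1lg2 encodes PD-L2 and lies 83.1 kb from Cd274 on chromosome 19. It had levels of 1.00, 0.76 and 0.65 in KO cells with IL-4, against 0.87, 0.62 and 0.62 in KO controls, and of 0.38, 0.43 and 0.19 in WT cells with IL-4, against 0.88, 0.97 and 0.99 in WT controls. WT cells with IL-4 lay below every other array, and KO cells with IL-4 overlapped both controls. The KO controls lay just below the WT controls, a difference of -0.24 that was not called (limma, adjusted p = 0.138). Pdcd1lg2 fell 1.53-fold with IL-4 in WT cells (-0.61 ± 0.10 SE, limma, adjusted p = 0.000516), and the difference in KO cells was 0.10 ± 0.10 (SE, 95% interval -0.13 to 0.33, adjusted p = 0.482). The responses differed by 0.71 ± 0.15 (SE, adjusted p = 0.00312). With IL-4 it was higher in KO than in WT cells by 0.47 ± 0.10 (SE, adjusted p = 0.0034), or by 0.29 with normexp background correction. PD-L2 is known as an IL-4 and STAT6 induced gene of macrophages, and the direction in these activated WT B cells was the lower one.

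The 2 Pdcd1lg2 probes overlap by 57 bases, of which 55 match. They were made to AF142780, at chr19:29545470-29545529, and to NM_021396, at chr19:29545473-29545532 (mm9, plus strand). The stretches of 30 bases that hold their differences are shown because both probes read the same place, and capitals mark the differing bases.
Pdcd1lg2 probe to NM_021396, bases 28 to 57: tggaagcatttaagcaacacgtTaagtAcc
Pdcd1lg2 probe to AF142780, bases 31 to 60: tggaagcatttaagcaacacgtCaagtGcc
Counted from 1 at the 5′ end of the NM_021396 probe, the differences are T50C and A55G. The AF142780 probe was the brighter and stands for the gene. The NM_021396 probe had group means of 0.66 in KO cells with IL-4, 0.67 in KO controls, 0.28 in WT cells with IL-4 and 0.90 in WT controls. Its difference with IL-4 was -0.01 in KO cells and -0.62 in WT cells, and the 2 responses differed by 0.61, which was called.

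Cd276 encodes B7-H3. Its probe, at chr9:58372107-58372150 (mm9), read between -5.84 and -5.39 in KO cells with IL-4, -5.78 and -5.37 in KO controls, -5.89 and -5.49 in WT cells with IL-4, and -5.85 and -5.61 in WT controls. The groups overlapped at background, and the gene was not tested. The probe is 60 bases long, while its given position spans 44 bases. It is the only Cd276 probe, so a gene without signal and a probe that reads poorly cannot be told apart.

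Cd28 encodes the T cell receptor for CD80 and CD86 and is also known from plasma cells. Its levels were -3.90, -3.80 and -3.58 in KO cells with IL-4, where 2 of 3 arrays were well above background, against -2.09, -2.38 and -2.48 in KO controls. They were -0.57, -0.47 and -0.43 in WT cells with IL-4, against -2.47, -2.25 and -2.27 in WT controls. WT cells with IL-4 were highest and KO cells with IL-4 lowest, without overlap, and the controls of both genotypes overlapped. Cd28 rose 3.58-fold with IL-4 in WT cells (1.84 ± 0.11 SE, limma, adjusted p = 2.67e-07) and fell 2.72-fold in KO cells (-1.44 ± 0.11 SE, adjusted p = 8.79e-06). The KO response minus the WT response was -3.28 ± 0.16 (SE, adjusted p = 1.28e-07). With IL-4, Cd28 was 9.64-fold lower in KO than in WT cells (-3.27 ± 0.11 SE, adjusted p = 4.57e-09). Without IL-4 the difference was 0.01 (95% interval -0.24 to 0.26, adjusted p = 0.947). The size depended on how background was treated, while the calls, and the directions of the called differences, did not. With normexp background correction the difference with IL-4 was -0.66 in KO cells and 1.20 in WT cells, KO minus WT with IL-4 was -1.81 and the responses differed by -1.86. In the authors' deposited table of values these were -0.69, 1.35, -2.08 and -2.04. Its probe lies at chr1:60830144-60830203 (mm9).

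Because Cd28 marks T cells, T cell marker genes are given beside it. Of 8 T cell markers, 5 were tested, and Cd8a and Cd8b1 were not well above background on any array. The summed linear level of the 8 markers ranged from 2.661 to 2.824 in KO cells with IL-4, from 2.74 to 3.61 in KO controls, from 2.756 to 2.842 in WT cells with IL-4 and from 2.625 to 2.731 in WT controls. With IL-4, Cd3d rose by 0.73 in WT cells and Lat fell by 0.75 in KO cells. None of the 5 was called between KO and WT cells with IL-4, where 29.8% of all genes were higher and 21.3% lower. Lat alone was called between the controls, higher in KO by 0.46 (limma, adjusted p = 0.0195), where 4.72% of all genes were higher. Plasma cell markers also moved: the summed level of 6 was 111.4 to 114.2 in KO cells with IL-4, 207.9 to 260.9 in KO controls, 234.2 to 238.8 in WT cells with IL-4 and 234.4 to 247.8 in WT controls. With IL-4, 1 of the 6 plasma cell markers rose and 4 fell in KO cells, and 3 rose and 3 fell in WT cells, where 27.5% of all genes were higher and 14.7% lower in KO cells, and 26.4% and 30.8% in WT cells. The sum hides opposite moves: in WT cells with IL-4 Igj fell 56.5-fold, Derl3 fell 8.42-fold and Prdm1 fell 7.03-fold, while Xbp1 rose 1.83-fold. In KO cells Igj fell 10.8-fold, Derl3 3.17-fold, Prdm1 3.22-fold and Xbp1 1.87-fold. The part of these cells in the Cd28 values was not tested.

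Btla encodes the inhibitory receptor of HVEM. It had levels of 4.82, 4.79 and 4.78 in KO cells with IL-4, against 4.69, 4.69 and 4.60 in KO controls, and of 4.25, 4.29 and 4.23 in WT cells with IL-4, against 4.82, 4.82 and 4.77 in WT controls. WT cells with IL-4 lay below all other arrays, and KO cells with IL-4 overlapped the WT controls. Btla fell 1.46-fold with IL-4 in WT cells (-0.55 ± 0.04 SE, limma, adjusted p = 1.57e-06). In KO cells it was higher by 0.13 ± 0.04 (SE, adjusted p = 0.0276). That call was lost with quantile scaling, where the difference was 0.01, with normexp background correction (0.12) and without a filter. The sign was the other one in the authors' deposited values (-0.02). The responses differed by 0.68 ± 0.06 (SE, adjusted p = 9.73e-06), and with IL-4 Btla was higher in KO than in WT cells by 0.54 ± 0.04 (SE, adjusted p = 2.31e-06). Its probe lies at chr16:45252905-45252964 (mm9).

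**Figure D3:**
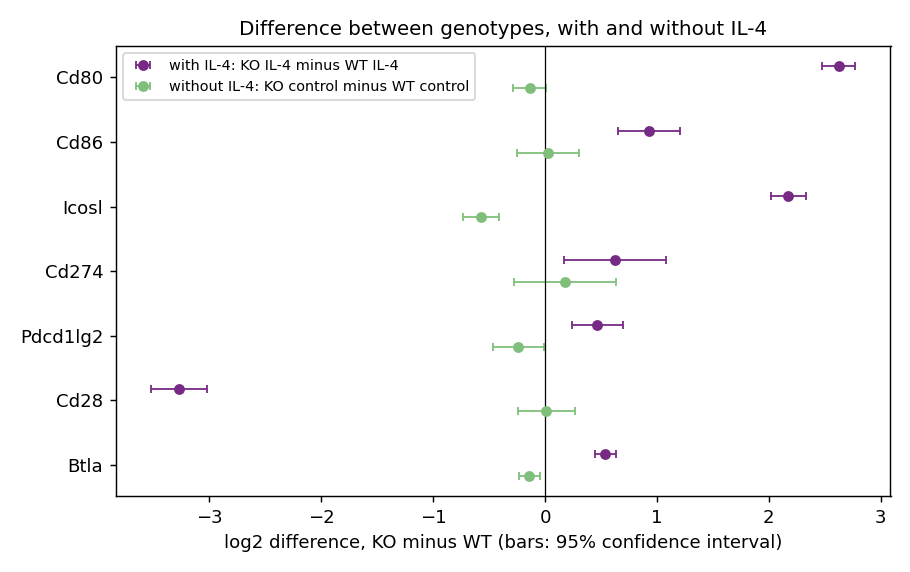
KO minus WT difference (log2, points with 95% intervals) for the 7 tested genes, with IL-4 above without IL-4 for each gene. With IL-4 the values run from -3.27 for Cd28 to 2.63 for Cd80. Without IL-4 only Icosl (-0.57) was called, where 4.72% of all genes were higher and 6.97% lower.

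Counted over the family, IL-4 in KO cells went with 3 genes higher (Cd80, Cd86 and Btla) and 2 lower (Icosl and Cd28) of the 7 tested. Of all genes tested, 27.5% were called higher and 14.7% lower in that comparison. In WT cells 1 was higher (Cd28) and 4 were lower (Cd80, Icosl, Pdcd1lg2 and Btla), where 26.4% of all genes were higher and 30.8% lower. The median difference of the 7 genes was 0.10 in KO cells, beside 0.05 over all genes, and -0.55 in WT cells, beside -0.04 over all genes.

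Between KO and WT cells with IL-4, 6 of 7 were higher and Cd28 was lower, where 29.8% of all genes were higher and 21.3% lower, and the median was 0.62 beside 0.06. Without IL-4 none was higher and Icosl was lower, where 4.72% of all genes were higher and 6.97% lower, and the median was -0.14 beside -0.04. With scaling by each array's median 4 of the 7 were called lower, while the median over all genes itself moved to -0.22. At an unadjusted p under 0.05 none of the 7 was higher by limma and, beside Icosl, Pdcd1lg2 (0.0426) and Btla (0.0071) were lower. In the authors' deposited values none was called higher in that comparison and Icosl was called lower. The KO response minus the WT response was above 0 by the test for 5 genes and below 0 for Cd28, where 28.3% of all genes were above and 16.4% below, and the median was 0.71 beside 0.10. These comparisons share arrays, so their counts are not separate observations.

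Macrophage and dendritic cell markers are given beside the ligands because those cells carry B7 proteins too. Of 10 markers, 7 were tested, and Xcr1 was not well above background on any array. Their summed linear level was 70.65 to 80.29 in KO cells with IL-4, 61.2 to 71.66 in KO controls, 28.2 to 29.36 in WT cells with IL-4 and 57.63 to 59.7 in WT controls. It was lowest in WT cells with IL-4, and the ranges of the KO groups overlapped. Most of the sum comes from Flt3 and Emr1. Of the 7 tested, 2 were higher and 2 lower in KO than in WT cells with IL-4, where 29.8% and 21.3% of all genes were. Their median difference there was -0.18. Flt3 and Emr1 were higher in KO than in WT cells with IL-4 (by 2.10 and 1.33), while Cd14 and Itgax were lower, Itgax by at least 1.73-fold since KO cells had it at background. Lyz2 was well above background on 2 arrays, both WT controls. The 6 B cell markers were well above background on every array, with a summed level of 923.4 to 1000 in KO cells with IL-4, 856.4 to 915.2 in KO controls, 1123 to 1166 in WT cells with IL-4 and 974.8 to 1003 in WT controls. This sum hides opposite moves too: with IL-4 in WT cells 2 of the 6 rose and 3 fell, where 26.4% and 30.8% of all genes did. Between KO and WT cells with IL-4, 3 of the 6 were higher and 2 lower, where 29.8% and 21.3% of all genes were. The part of other cells in the ligand values was not tested.

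Among the members themselves, patterns over the 12 arrays were compared by the root-mean-square difference of the log2 levels after each gene's mean was removed. Pdcd1lg2 and Btla were closest (0.109) and Icosl and Cd28 were farthest apart (2.25). Cd80 stood 0.682 from Cd86 and 0.875 from Icosl, and Cd274 stood 0.354 from Pdcd1lg2. By the same measure, over 11479 other genes, Cd80 was nearest to Phf11d (0.182), Phf11b (0.197) and Armc9 (0.210), and Icosl to Tlr12 (0.158), Nostrin (0.191) and Cd36 (0.197). Cd28 was nearest to Gnaz (0.285), Sema4b (0.331) and Snx29 (0.335), and Cd86 to Snhg5 (0.0802), Tspan33 (0.104) and Hivep2 (0.111). For Cd274 the nearest were Osgepl1 (0.142), Rnf43 (0.143) and Tnfrsf13c (0.144), for Pdcd1lg2 Mrpl34 (0.0635), Nt5c3b (0.0666) and Unc93b1 (0.0669), and for Btla Gimap5 (0.0429), Rtcb (0.0447) and Ptprc (0.0492). Genes of small range, such as Btla, have small distances by construction.

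Other members of the B7, CD28 and butyrophilin families were read from a list of 9 genes on the array, of which 5 were tested. With IL-4, none rose (none also at an unadjusted p under 0.05 by limma) and 4 fell in KO cells, beside 27.5% and 14.7% of all genes, and 1 rose and 2 fell in WT cells, beside 26.4% and 30.8%. Their median difference was -0.72 in KO cells and -0.13 in WT cells. Icos, Vtcn1 and Btnl9 were not well above background on any array, and Ctla4 was so on 1 KO control and 1 WT control array. The gene of VISTA, an inhibitory B7 relative listed as 4632428N05Rik, fell with IL-4 by 0.72 in KO cells and by 0.46 in WT cells. Btnl2, an inhibitory butyrophilin relative, fell by 0.98 in KO cells and by 0.65 in WT cells, and Btn1a1 differed by 0.07 with IL-4 in KO cells (limma, adjusted p = 0.501). Btn2a2, a butyrophilin, was at least 2.26-fold lower in KO than in WT cells with IL-4, since no KO IL-4 array had it well above background. Pdcd1, the receptor of both PD-1 ligands, was higher in KO than in WT cells without IL-4 by 0.45 (limma, adjusted p = 0.00968). It was also higher in KO cells with IL-4, by 0.32 (limma, adjusted p = 0.00578). Pdcd1 fell with IL-4 by 0.25 in KO cells (limma, adjusted p = 0.0232), and its responses were not called different (-0.13, adjusted p = 0.361).

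Of 12 partners and neighbouring checkpoint genes, 9 were tested: with IL-4, 3 rose and 1 fell in KO cells (all genes: 27.5% and 14.7%), and 4 rose and 2 fell in WT cells (26.4% and 30.8%). The KO response minus the WT response was above 0 for 4 and below 0 for 4 of them, beside 28.3% and 16.4% of all genes. Their median difference was 0.01 in KO cells and -0.09 in WT cells. Cd96, a receptor of the nectin family ligands, fell by 1.60 with IL-4 in KO cells and rose by 1.06 in WT cells. Its ligand Pvr rose by 1.57 in WT cells, and the difference in KO cells was -0.16. The related ligand Pvrl2 rose by 1.79 in WT cells beside 0.01 in KO cells. Lag3, an inhibitory receptor of MHC class II, rose by 1.24 in KO cells, and the difference in WT cells was -0.28. The galectin gene Lgals9 rose by 0.64 in KO cells and fell by 0.22 in WT cells, and Tigit, an inhibitory receptor of the nectin family ligands, rose by 0.40 in KO cells and fell by 0.98 in WT cells. Tnfrsf14, the HVEM partner of BTLA, had responses that differed by 0.44 (limma, adjusted p = 0.0344). Neither response was itself called (0.20 in KO cells and -0.24 in WT cells), nor was KO minus WT with or without IL-4.

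**Figure D4:**
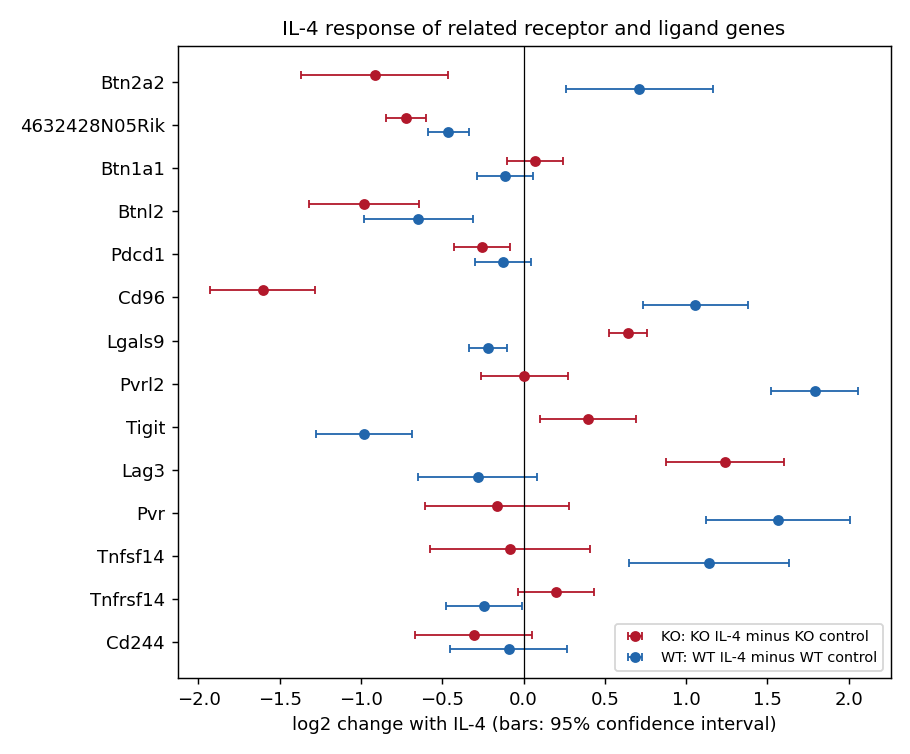
Difference with and without IL-4 (log2, points with 95% intervals) in KO cells, above, and WT cells, below, for 14 related family, partner and checkpoint genes. Cd96 lies at -1.60 in KO cells and 1.06 in WT cells, Pvrl2 at 0.01 and 1.79, and Lag3 at 1.24 and -0.28, and Btn2a2 was not well above background in KO cells with IL-4.

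Of 18 genes that regulate the surface level or transcription of B7 proteins, Stat6 among them, 17 were tested. With IL-4, 8 rose and 2 fell in KO cells, against 27.5% and 14.7% of all genes, and 9 rose and 5 fell in WT cells, against 26.4% and 30.8%. Their median difference was 0.15 in KO cells and 0.27 in WT cells. Between KO and WT cells without IL-4, 5 were lower, where 6.97% of all genes were. Stat6 is 1 of these 5, and as the gene knocked out its call follows from the design. March1 encodes a ubiquitin ligase known to remove CD86 from the cell surface. It had levels of -0.57, -0.51 and -1.18 in KO cells with IL-4, against 1.35, 1.01 and 0.59 in KO controls, and of 2.50, 2.48 and 2.45 in WT cells with IL-4, against 1.38, 1.39 and 1.35 in WT controls. KO cells with IL-4 were lowest and WT cells with IL-4 highest, without overlap, and the responses differed by -2.84 (limma, adjusted p = 2.17e-05). Cd83, whose protein is known to oppose MARCH1, rose by 0.65 with IL-4 in WT cells, and the difference in KO cells was 0.04. The NF-κB subunit gene Nfkb1 rose in both, by 0.56 in KO cells and by 1.35 in WT cells, and Nfkb2 rose by 0.58 in KO cells and fell by 0.14 in WT cells.

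Of 11 genes of CD28 and inhibitory receptor signalling, all were tested. With IL-4, 1 rose and 4 fell in KO cells (27.5% and 14.7% of all genes), and 4 rose and 2 fell in WT cells (26.4% and 30.8% of all genes). Their median difference was -0.02 in KO cells and 0.10 in WT cells. Grap2, an adaptor of CD28 signalling, fell by 0.52 in KO cells and by 2.02 in WT cells, and Ptpn6, the SHP-1 phosphatase that inhibitory receptors recruit, fell by 0.13 in KO cells and by 0.93 in WT cells. The phosphatase gene Inpp5d and the kinase gene Fyn rose by 0.52 and 0.63 in WT cells, and the differences in KO cells were -0.06 and 0.05. Of 13 genes of other costimulation pairs, all tested, 5 rose and 3 fell in KO cells, and 5 rose and 6 fell in WT cells, beside the same shares of all genes. Their median difference was 0.07 in KO cells and -0.11 in WT cells. Cd24a, whose protein is a costimulatory surface glycoprotein, fell by 0.78 in WT cells, and the difference in KO cells was 0.00. Slamf1 rose by 0.88 in KO cells and by 2.13 in WT cells. Icam1 rose by 0.43 in KO cells and fell by 0.37 in WT cells. Cd27, the receptor of CD70, fell by 1.66 in WT cells, where 1 of 3 arrays with IL-4 was well above background, and the difference in KO cells was 0.11.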

How the data were processed

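Cy3 signals of 12 1-colour arrays, 3 in each of 4 groups, were used. The scanner files that the authors deposited give each spot's intensity after background subtraction and detrending by Agilent Feature Extraction 10.7.3.1, per the file headers, with a surrogate where a spot is not above background. The authors also deposited quantile normalised log2 values per gene name, used as an alternative. RNA integrity numbers were 9.6 to 9.9 and 100 ng of RNA was labelled, per the labels.

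The processed intensity was put on the log2 scale and each array's 75th percentile over 59305 non-control spots was subtracted. Outlier spots (122 to 196 an array) were dropped, and the rest averaged by probe. Probes with signal well above background on every array (3) of some group, and with at least 2 values in every group, were kept (22936), and the kept probe with the highest mean stands for its gene (16493 genes). The 4 group means were fitted over all arrays with limma 3.58.1 in R 4.3.3 (with jsonlite 2.0.0 and version 1.17.8 of data.table), and 5 contrasts were tested, with p-values adjusted by Benjamini-Hochberg over all genes. The limma fit was tested on simulated gene values with known changes, for IL-4 in KO cells only. Scaling, the filter, the probe choice and the slides were not part of that test. Bounds stand for folds where all arrays of a group lack signal well above background. Python 3.11.15 with pandas 2.3.3 and matplotlib 3.10.9 drew the figures.

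The members and lists were chosen with earlier results of these data known, so their counts are descriptions. All 8 members are named with every probe, with up to 4 genes of each other list by the smallest adjusted p of the difference between responses, and the 3 genes nearest to each member in pattern. Pdcd1, Pvr, Lag3, Tnfrsf14, the related genes at background and the marker genes fall outside this rule and were named after their values had been seen. The fit of the 4 group means left replicate number out. Correlations of deviations between arrays of equal number ran from -0.158 to 0.391, and were below 0.1 for most. The highest were 0.316 and 0.391, for replicates 1 and 3 of the IL-4 comparison in KO cells. With 3 arrays per group these values cannot decide whether equal numbers mark paired samples. Alternatives covered scaling, background correction, the filter, the probe choice, variance settings, the arrays fitted, slide, replicate number, the authors' values, a log2 minimum of 1 and each array left out.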

Additional observations from a re-analysis of the deposited data

Results flagged for a closer look

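For 6 of the 7 tested genes the response to IL-4 in KO cells differed from that in WT cells by the test of the difference itself (limma, adjusted over all genes), where 28.3% of all genes were called above 0 and 16.4% below 0. The KO response minus the WT response was 2.76 ± 0.09 (SE) for Cd80, which rose in KO cells and fell in WT cells. For Cd28 it was -3.28 ± 0.16 (SE), with a fall in KO cells and a rise in WT cells. For Icosl it was 2.75 ± 0.10 (SE), with a fall in both that was smaller in KO cells. For Cd86 it was 0.91 ± 0.18 (SE), for Pdcd1lg2 0.71 ± 0.15 (SE) and for Btla 0.68 ± 0.06 (SE). All KO IL-4 arrays lie on slide 2 and all WT arrays on slide 1, and the part of the slide in these values was not tested beyond the fit with slide as a block. In that fit the differences were 2.80 for Cd80, -3.12 for Cd28, 2.80 for Icosl, 0.71 for Cd86, 0.79 for Pdcd1lg2 and 0.74 for Btla, and all 6 were called.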

How the results depend on the processing

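The counts of members called were within 1.5 times the reported ones in 58 of 67 alternatives and in 35 of 36 that left out 1 array. For KO minus WT without IL-4, 1 member was called, against 4 with scaling by each array's median, 2 with normexp background correction, 2 with trend and robust variance settings, and 0 at a log2 minimum of 1. That minimum left 1 member for IL-4 in KO cells, and 3 each for IL-4 in WT cells, for KO minus WT with IL-4 and for the difference between responses. For IL-4 in KO cells 2 were called on slide 2 alone. Leaving out 1 array gave 4 to 5 members for IL-4 in KO cells, 5 to 5 in WT cells, 6 to 7 for KO minus WT with IL-4, 1 to 2 without IL-4 (2 without KO control replicate 1), and 6 to 6 for the difference between responses. The Btla call in KO cells was lost without KO control replicate 3, KO IL-4 replicate 1 or KO IL-4 replicate 2. The Cd274 call between genotypes with IL-4 was lost with slide as a block, no filter, only the compared arrays or the authors' values, and without WT IL-4 replicate 1 (adjusted p = 0.0876), WT IL-4 replicate 3 (0.0537) or KO IL-4 replicate 3 (0.0718). The Cd86 difference between responses was not called with the mean of its probes (0.70, adjusted p = 0.0902). For Cd28 the difference between responses was -1.86 with normexp and -2.04 in the authors' values, beside -3.28. The causes were not tested.

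Among called values, only Btla in KO cells turned sign, to -0.0226 in the authors' values. Among values not called, Cd274 in KO cells was -0.0416 with quantile scaling, -0.0363 with slide as a random block, -0.263 with slide as a fixed block and on slide 2 alone, -0.0815 in the authors' values, and between -0.225 (without KO IL-4 replicate 3) and 0.173 with 1 array left out. Pdcd1lg2 in KO cells was -0.0319 with normexp and -0.0448 in the authors' values. For KO minus WT without IL-4, Cd28 was -0.116 with quantile scaling, -0.17 with median scaling, -0.0407 in the authors' values, and between -0.0995 and 0.0926 with 1 array left out. Cd86 was -0.157 with median scaling, -0.0149 with normexp and -0.074 with slide as a block, on slide 1 alone and without KO control replicate 3. Cd274 was -0.0065 with median scaling, and Cd86 with IL-4 in WT cells was 8e-04 with the mean of its probes.

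With the replicate number as a block, the counts stayed at 5, 5, 7, 1 and 6 and no call changed. Whether the numbers pair the samples was not settled. Median scaling moved the median of all genes with IL-4 in KO cells to 0.20, beside 0.05, that of KO minus WT without IL-4 to -0.22, beside -0.04, and that of the difference between responses to 0.23, beside 0.10. Among called genes the higher ones made up 82.2% beside 65.2% in KO cells, 48.7% beside 58.4% between genotypes with IL-4, 8.35% beside 40.4% without IL-4 and 73.6% beside 63.3% for the difference between responses. Over all genes, KO minus WT without IL-4 gave 1928 calls, against 271 without a filter, 415 under the slide block, 807 in the authors' values and 5567 with median scaling, and KO minus WT with IL-4 gave 8427, against 5272 with slide as a block. Signals near background, those of Cd28 in KO cells with IL-4 and of Cd276, limit precision there.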
